A study of Arabidopsis thaliana with 12 samples.

Results

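Dusk was set against dawn in rosette leaves of Arabidopsis thaliana across 4 genotypes. The 4 dusk libraries were collected 15 h after lights-on (ZT15, near the end of a 16 h light period), and the 4 dawn libraries at ZT0, the end of an 8 h night. At each time there was 1 library of each genotype: the reciprocal F1 hybrids ColxC24 (Col as the mother) and C24xCol (C24 as the mother), and their inbred parents, the accessions Col (Columbia) and C24. These 8 libraries were chosen by their time label from the 12 of the series, whose other 4, taken at ZT6 (midday), place midday levels and enter 1 alternative fit to all 12 libraries. All plants were wild-type accessions or their F1, 3 weeks old, grown in soil at 22 °C in light and 20 °C in darkness, and sampled as mature leaves before bolting. Light, temperature and clock time changed together between the groups, and their parts cannot be told apart in this design.

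Arabidopsis keeps time with a transcriptional clock in which MYB-type factors that peak around dawn repress genes that peak in the evening, and evening repressors in turn shut the dawn genes off. The clock and light together gate much of leaf metabolism: starch is made by day and broken down at night, nitrate and sulfate are reduced in step with photosynthesis, and the light-harvesting proteins are made mainly in the morning. Allelic differences between Col and C24 meet in the F1 hybrids, and the series was designed to follow expression in these hybrids at 3 times of day.

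The deposited unit is RPKM, a read count scaled to the length of the gene model and to the mapped reads of the library. Values of the gene models of a locus were summed, which gave 32592 loci, and 17147 of them with a mean of at least 1 RPKM over the 8 libraries were tested, while 15445 fell below that filter. A change is the difference of log2(RPKM + 1), dusk minus dawn within a genotype, averaged over the 4 genotypes with its standard error (SE), and a locus was called where limma's Benjamini-Hochberg adjusted p was under 0.05. The pseudocount of 1 understates the change of genes near or below 1 RPKM. Each genotype supplied 1 pair of libraries, so the error is the spread of the dusk-minus-dawn difference between genotypes, and no genotype has a replicate of its own. The hybrids descend from both parents, so the 4 pairs are related and not independent. The labels give no batch, and a batch shared by the libraries of 1 time could not be told apart from time. Each result was recomputed under up to 16 alternative settings, named where they ended a call. Values of 4 libraries are listed in the order Col, C24, ColxC24 and C24xCol. Most genes were named for the size of their change, which favours groups without overlap. The share of all tested loci without overlap was not counted.

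The files hold no read totals, but steps of 1 read among low values put the depth at 23.6 to 26.5 M reads in the dusk libraries and at 16.6 to 25.8 M reads in the dawn libraries. Col at dawn was the shallowest. On a model of 1 kb, 1 read was worth 0.0377 to 0.0602 RPKM. Leaf markers summed to 56157 to 81528 RPKM at dusk and 61561 to 82358 RPKM at dawn, whereas root markers summed to 1.98 to 3.94 RPKM at dusk and 2.46 to 6.36 RPKM at dawn, and the root gene AGL17 was listed at 0 in all 8 libraries. Flower markers summed to at most 2.15 RPKM at dusk and 2.74 RPKM at dawn, and pollen and seed storage markers to at most 0.0538 RPKM in any of the 8. Chloroplast-encoded loci took 0.580%, 0.734%, 1.25% and 0.874% of all RPKM at dusk, against 0.453%, 0.644%, 0.303% and 0.939% at dawn (two-sided exact permutation test within genotypes, p = 0.25, where 4 pairs cannot go below 0.13). Pearson's r of log2 values was 0.921 to 0.993 between dusk libraries, 0.910 to 0.984 between dawn libraries and 0.839 to 0.928 between a dusk and a dawn library.

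A large part of the tested transcriptome differed between dusk and dawn. Of the 17147 loci, 8424 were called (49.1%), of which 4052 were higher at dusk (23.6% of all tested) and 4372 lower at dusk (25.5%). Called changes of at least 2-fold numbered 899 upward (5.24%) and 1169 downward (6.82%). A change of at least 2-fold in each of the 4 genotypes separately, a count that uses no test, was seen at 331 loci higher at dusk (1.93%) and 610 loci lower at dusk (3.56%). Among the called loci, 8114 (96.3%) moved the same way in all 4 genotypes. The call itself favours such loci, because its error is the spread between genotypes, so this share is no separate evidence of agreement. The median change over all tested loci was -0.0040. Called falls of at least 2-fold outnumbered such rises in all 16 alternatives too, by 1195 to 1123 without the C24 pair, where the counts were closest. By genotype the excess of 2-fold falls was widest in C24, and ColxC24 had slightly more 2-fold rises than falls. Over calls of any size the balance was not fixed: higher calls outnumbered lower ones without the C24 pair (4612 against 4034), with quantile normalization (4589 against 4247) and with median-of-ratios scaling (4451 against 4406). Without the C24xCol pair 5551 loci were called, 2524 of them higher at dusk.

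**Figure D1:**
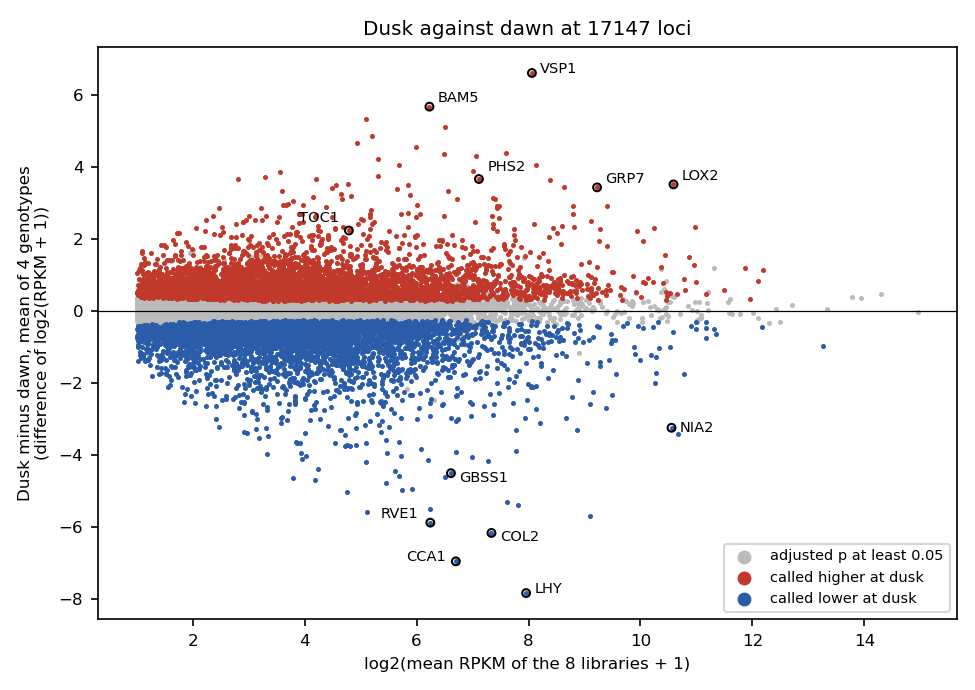
Change between dusk and dawn (mean of 4 genotypes, difference of log2(RPKM + 1), vertical axis) against mean level in the 8 libraries (log2 of RPKM + 1, horizontal axis) for the 17147 tested loci. Red points are called higher at dusk (4052), blue points called lower at dusk (4372) and grey points not called, and the dawn genes LHY, CCA1, COL2 and RVE1 lie at the lower edge with VSP1 and BAM5 at the upper edge.

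The deepest falls were those of dawn transcription factors. LHY (AT1G01060), a MYB-type repressor at the core of the clock, stood at 1.05, 0.880, 1.24 and 1.45 RPKM at dusk, against 582, 459, 444 and 489 RPKM at dawn, a change of -7.84 ± 0.12 (SE; adjusted p = 2.2e-07). CCA1 (AT2G46830), its close relative and partner, had 0.776, 0.562, 0.590 and 0.690 RPKM at dusk and 202, 198, 188 and 233 RPKM at dawn (-6.96 ± 0.098, adjusted p = 2.2e-07). The lowest dawn library of each gene was more than 100-fold above its highest dusk library, and the 4 genotypes lay within 0.52 log2 units of each other for LHY and within 0.27 for CCA1. By midday LHY was already down to 6.34 to 17.0 RPKM and CCA1 to 21.9 to 52.4 RPKM, so most of the descent of LHY lay before ZT6.

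RVE1 (AT5G17300), a related MYB factor that links the clock to auxin production, had 3.15, 0.527, 1.53 and 1.21 RPKM at dusk and 216, 123, 113 and 139.6 RPKM at dawn (-5.89 ± 0.15, adjusted p = 1.4e-06). LNK2 (AT3G54500), a coactivator that works with RVE-type factors, had 3.55, 2.92, 3.06 and 3.16 RPKM at dusk and 90.5, 76.8, 74.2 and 129.6 RPKM at dawn (-4.46 ± 0.14, adjusted p = 4.3e-06). Unlike LHY, LNK2 was about as high at midday as at dawn, with 103 to 115 RPKM at ZT6. Of the 12 tested members of the 14 morning-phased clock genes, 9 were called lower at dusk (75.0%, against 25.5% of all tested loci), 1 was called higher and 2 were not called. Their median change was -3.68, against -0.0040 over all tested loci.

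Of the other members called lower, named after their values were seen, the transcriptional activator RVE8 (AT3G09600) averaged 4.38 ± 1.21 RPKM at dusk and 81.9 ± 12.4 RPKM at dawn (SD, n = 4 genotypes). Its relative RVE4 (AT5G02840) averaged 27.5 ± 1.45 RPKM at dusk and 221 ± 54.2 RPKM at dawn. RVE2 (AT5G37260) averaged 95.9 ± 9.89 RPKM at dusk and 429 ± 109.9 RPKM at dawn. Over the day RVE2 went through a trough: its levels were 335 to 575 RPKM at dawn, 0.822 to 3.58 RPKM at midday and 84.9 to 107 RPKM at dusk. LNK3 (AT3G12320) had at most 0.276 RPKM at dusk, a handful of reads, against 13.8 to 25.02 RPKM at dawn. LNK4 (AT5G06980) had at most 0.415 RPKM at dusk, against 7.18 to 24.6 RPKM at dawn. Both peaked between the times compared, LNK3 at 32.0 to 54.1 RPKM and LNK4 at 36.6 to 66.4 RPKM at midday.

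PRR7 and PRR9, pseudo-response regulators that repress CCA1 and LHY by day, were low at both ends of the night. PRR7 (AT5G02810) was the only morning-phased member called higher at dusk, with 3.56, 1.77, 1.85 and 1.76 RPKM at dusk and 0.0842, 0.214, 0.114 and 0.136 RPKM at dawn (1.47 ± 0.18, adjusted p = 0.00073), and both groups lay far below its 49.6 to 80.9 RPKM at midday. PRR9 (AT2G46790) missed the filter with 0.0892, 0.0445, 0.0539 and 0.0151 RPKM at dusk and 0.0219, 0.127, 0.0148 and 0.0141 RPKM at dawn, levels worth a few reads, while its midday level was 15.6 to 31.7 RPKM. LNK1 (AT5G64170), named after its values were seen, missed the filter too and had 0.224 to 2.12 RPKM at dusk, 0.0945 to 0.608 RPKM at dawn and 33.9 to 53.4 RPKM at midday. These genes peaked between the times compared.

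Evening-phased clock genes formed the mirror image. All 16 of the listed genes were tested: 13 were called higher at dusk (81.2%, against 23.6% of all tested loci), 11 of them at least 2-fold, 2 were called lower and 1 was not called. Their median change was 2.27. TOC1 (AT5G61380), the founding pseudo-response regulator and a repressor of CCA1 and LHY, had 47.1, 50.6, 40.1 and 38.4 RPKM at dusk and 4.998, 14.9, 7.31 and 9.60 RPKM at dawn (2.23 ± 0.21, adjusted p = 0.00025). C24 held the highest TOC1 level at both times, and the dawn levels of the hybrids lay between those of the parents. PRR3 (AT5G60100) had 21.6, 23.1, 20.1 and 18.9 RPKM at dusk and 0.227, 0.784, 0.442 and 0.659 RPKM at dawn (3.85 ± 0.13, adjusted p = 4.9e-06). PRR5 (AT5G24470) was lower in level, with 5.66, 3.64, 2.94 and 3.66 RPKM at dusk and 0.238, 0.211, 0.340 and 0.255 RPKM at dawn (1.95 ± 0.16, adjusted p = 0.00016).

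The evening complex, which represses growth and clock genes after dusk, is built from ELF3, ELF4 and LUX. ELF4 (AT2G40080) had 36.2, 36.9, 30.7 and 28.2 RPKM at dusk and 1.83, 1.89, 1.17 and 1.80 RPKM at dawn (3.67 ± 0.11, adjusted p = 3.3e-06). LUX (AT3G46640), the DNA-binding subunit, had 27.4, 21.6, 19.2 and 18.8 RPKM at dusk and 3.92, 2.73, 2.66 and 5.22 RPKM at dawn (2.32 ± 0.17, adjusted p = 8.8e-05). For both genes the dusk and dawn libraries were widely separated in every genotype. BOA (AT5G59570), a relative of LUX named after its values were seen, had 6.18, 8.30, 5.49 and 4.59 RPKM at dusk and 3.45, 2.42, 3.42 and 3.15 RPKM at dawn (0.78 ± 0.18, adjusted p = 0.0095), a smaller step with no overlap between the groups.

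Among the clock's partners in light signalling, FKF1 (AT1G68050), a blue-light receptor of the F-box type that removes repressors of flowering, had 9.57, 15.5, 10.9 and 11.9 RPKM at dusk and 0, 0.0205, 0 and 0.0364 RPKM at dawn. It was listed at 0 in 2 dawn libraries, and the other two held a read or so. Its fitted change of 3.66 ± 0.13 (adjusted p = 5.9e-06) depends on the pseudocount and became 6.71 at a pseudocount of 0.1 and 1.75 at 5. GI (AT1G22770), a scaffold protein that works with FKF1, had 4.31, 1.24, 1.53 and 1.88 RPKM at dusk and 0.0144, 0.0105, 0 and 0 RPKM at dawn (1.60 ± 0.22, adjusted p = 0.0011, a change that shrank to 0.51 at a pseudocount of 5). The midday level of GI was higher again, 12.2 to 23.8 RPKM. Both relatives of FKF1 in the list went the other way by a small margin. LKP2 (AT2G18915) had 6.33 to 8.07 RPKM at dusk and 9.56 to 13.8 RPKM at dawn (-0.70 ± 0.12, adjusted p = 0.0034). ZTL (AT5G57360) had 15.3 to 17.5 RPKM at dusk and 21.2 to 29.3 RPKM at dawn (-0.63 ± 0.11, adjusted p = 0.0037).

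GRP7 (AT2G21660), an RNA-binding protein whose oscillation is driven by the clock, was the most abundant evening gene, with 1020.2, 2038, 667 and 680.1 RPKM at dusk and 118, 83.0, 86.8 and 80.6 RPKM at dawn (3.42 ± 0.27, adjusted p = 0.00012). C24 at dusk stood well above the other 3 genotypes. Its close relative GRP8 (AT4G39260), named after its values were seen, had 373, 1041, 234 and 248 RPKM at dusk and 99.7, 73.9, 61.3 and 60.0 RPKM at dawn, again with C24 highest at dusk. Reads of such similar genes may be split between them. COR27 (AT5G42900), a cold- and clock-regulated gene named on the same ground, had 16.9, 22.2, 18.1 and 17.3 RPKM at dusk and 5.38, 1.14, 0.874 and 3.04 RPKM at dawn (2.61 ± 0.32, adjusted p = 0.00073). CHE (AT5G08330), a TCP-type factor that binds the CCA1 promoter, was the 1 member not called. It had 34.7, 74.9, 44.2 and 53.0 RPKM at dusk and 37.4, 31.5, 36.6 and 37.8 RPKM at dawn, and was called only without the Col pair (adjusted p = 0.036).

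**Figure D2:**
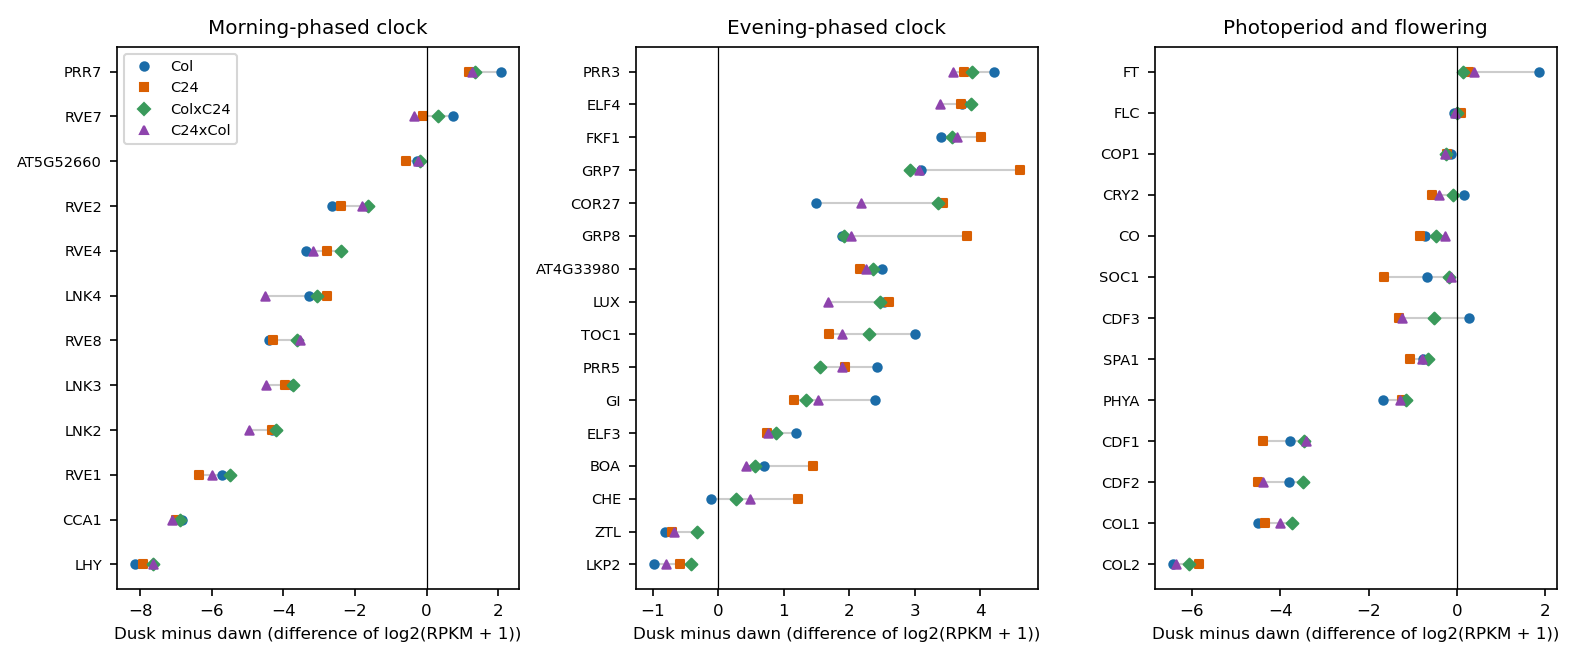
Dusk minus dawn (difference of log2(RPKM + 1), horizontal axis) in each of the 4 genotypes for the tested morning-phased clock, evening-phased clock and photoperiod genes, 1 symbol per genotype. LHY, CCA1 and RVE1 lie between -8.15 and -5.49 in every genotype, PRR3, ELF4 and FKF1 at 3.38 or above, and ZTL and LKP2 lie below 0.

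CCA1 and LHY bind the evening element AAAATATCT, and bHLH and bZIP factors bind the G-box CACGTG, so the stretch upstream of the clock genes was read for both. Sequences came from RefSeq on build TAIR10.1, in the 300 bases before each gene's annotated start, on both strands, because the deposited tables carry no coordinates and the submitters' processing notes name TAIR9. The evening element stood before 8 of the 16 evening-phased genes (50.0%) and before 1 of the 12 tested morning-phased genes, RVE7 (8.33%). Over all 16950 tested loci with a window the share was 2.94%, over loci called at least 2-fold higher at dusk 8.29% (74 of 893), and over those called at least 2-fold lower 1.29% (15 of 1161). The stretches shown here are upstream DNA, none overlapping an annotated exon, written along the strand of the gene. Capitals mark 1 match of the element in each, in either orientation (AAAATATCT or its complement AGATATTTT), and further matches stay in lower case.
TOC1: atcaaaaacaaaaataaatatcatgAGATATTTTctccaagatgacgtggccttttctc
PRR5: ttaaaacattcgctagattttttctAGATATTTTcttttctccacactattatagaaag
LUX: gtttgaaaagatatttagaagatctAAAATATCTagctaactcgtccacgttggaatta
BOA: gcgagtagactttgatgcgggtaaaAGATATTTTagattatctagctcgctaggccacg
FKF1: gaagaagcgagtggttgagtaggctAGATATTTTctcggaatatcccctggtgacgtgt
COR27: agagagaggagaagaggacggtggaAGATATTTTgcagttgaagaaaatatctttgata
GRP7: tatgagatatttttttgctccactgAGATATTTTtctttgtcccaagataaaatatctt
GRP8: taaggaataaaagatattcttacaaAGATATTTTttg

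The genes of 4 stretches lie on the plus strand: TOC1 (chr5:24674787-24674845), LUX (chr3:17182964-17183022), BOA (chr5:24003820-24003878) and FKF1 (chr1:25508428-25508486). The other 4 lie on the minus strand: PRR5 (chr5:8358700-8358758), COR27 (chr5:17199916-17199974), GRP7 (chr2:9266579-9266637) and GRP8 (chr4:18275217-18275253). All 8 genes were called higher at dusk, with changes of 0.78 (BOA) to 3.66 (FKF1). GRP7 held 3 copies of the element in its window, and PRR5 and COR27 held 2 each. ELF4, GI and PRR3, which rose as well, held none in these 300 bases.

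G-boxes stood before 6 of the 12 morning-phased genes (50.0%) and 2 of the 16 evening-phased genes (12.5%). The share of windows with a G-box was 7.91% over all tested loci, 10.2% over loci called at least 2-fold higher at dusk and 9.82% over those called at least 2-fold lower. Both genes with the deepest falls carried 1, shown here in capitals.
CCA1: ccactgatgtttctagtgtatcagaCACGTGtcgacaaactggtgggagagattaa
LHY: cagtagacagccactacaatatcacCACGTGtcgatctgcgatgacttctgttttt

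The CCA1 stretch lies at chr2:19245373-19245428 on the plus strand and the LHY stretch at chr1:37921-37976 on the minus strand. Neither of these genes, nor RVE1, held an evening element in its window. The CCA1-binding site AAAAATCT stood in 8.10% of all windows. The share was close to that at loci called at least 2-fold higher (8.06%) or lower at dusk (8.70%). It stood before 3 of the 16 evening-phased genes (18.75%) and 2 of the 12 morning-phased genes (16.7%), which are small counts. The telo-box AAACCCTA, common before genes of the translation machinery, stood in 4.53% of all windows, 4.70% of those higher at dusk and 2.24% of those lower. These shares describe letters in a window and not binding.

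Photoperiod genes, which tie flowering to day length, were lower at dusk or not called. Of 13 tested genes of 15, 7 were called lower at dusk (53.8%, against 25.5% of all tested loci), 5 of them at least 2-fold (38.5%, against 6.82%), none was called higher and 6 were not called (median change -0.71). COL2 (AT3G02380), a CONSTANS-like factor, had 2.96, 3.81, 3.70 and 3.22 RPKM at dusk and 339, 272, 314 and 346 RPKM at dawn (-6.17 ± 0.13, adjusted p = 8.7e-07). Its relative COL1 (AT5G15850) had 6.19, 6.997, 6.63 and 6.94 RPKM at dusk and 163, 162, 101 and 126 RPKM at dawn (-4.15 ± 0.14, adjusted p = 4.9e-06). Neither gene came near overlap between the times. CDF1 (AT5G62430), a DOF-type repressor of CONSTANS transcription, averaged 3.03 ± 1.35 RPKM at dusk and 51.0 ± 6.14 RPKM at dawn (SD, n = 4 genotypes). Its relative CDF2 (AT5G39660) averaged 0.834 ± 0.280 RPKM at dusk and 29.9 ± 8.38 RPKM at dawn.

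CONSTANS itself, CO (AT5G15840), moved far less. It had 5.41, 1.51, 2.42 and 2.40 RPKM at dusk and 9.51, 3.51, 3.76 and 3.09 RPKM at dawn (-0.57 ± 0.13, adjusted p = 0.0096), and Col was highest at both times. With genotype left out of the model the CO call was lost (adjusted p = 0.24). FT (AT1G65480), the mobile flowering signal that CO activates, had 18.4, 0.331, 0.147 and 0.433 RPKM at dusk and 4.39, 0.101, 0.0472 and 0.0899 RPKM at dawn. It was seen at more than 0.5 RPKM only in Col, where dusk was the higher time, and was not called (0.66 ± 0.28, adjusted p = 0.09), although at a pseudocount of 0.1 its adjusted p was 0.019. FLC (AT5G10140), a repressor of FT named after its values were seen, stood at 0.0895, 99.3, 83.6 and 88.5 RPKM at dusk and 0.139, 94.0, 83.6 and 91.6 RPKM at dawn (-0.0089 ± 0.092, adjusted p = 0.94). FLC was thus near 0 in Col and abundant in C24 and in both hybrids at either time, a difference between genotypes and not between times.

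**Figure D3:**
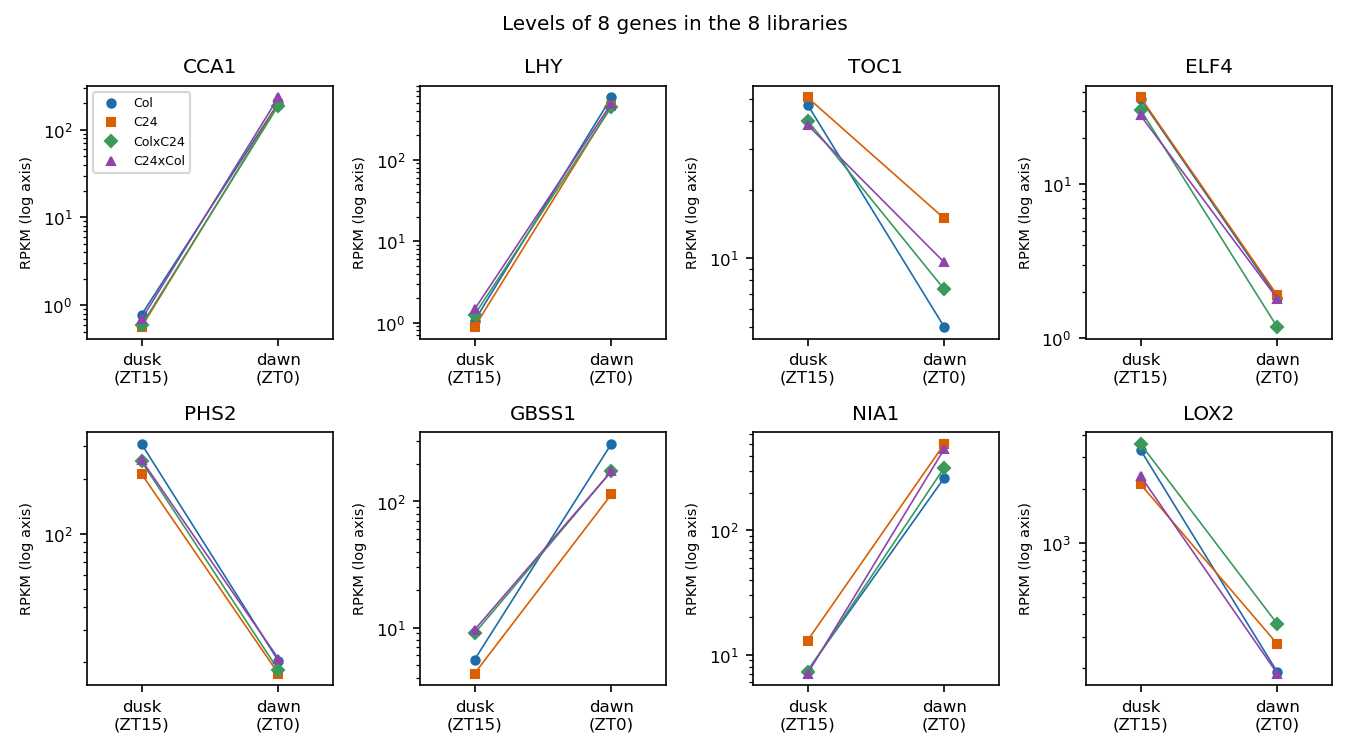
RPKM (log axis) of 8 genes in each dusk library and, joined by a line, the dawn library of the same genotype. CCA1, LHY, GBSS1 and NIA1 lie lower at dusk and TOC1, ELF4, PHS2 and LOX2 higher at dusk in all 4 genotypes, with no overlap between the times.

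Most of the listed genes of starch degradation were higher at dusk, while 3, among them 2 plastid beta-amylases, were lower. All 17 were called, against 49.1% of all tested loci. Of these, 14 were higher at dusk (82.4%, against 23.6%), 12 of them at least 2-fold (70.6%, against 5.24%), and 3 lower (17.65%, against 25.5%), with a median change of 1.96. AMY3 (AT1G69830), the chloroplast alpha-amylase, had 118, 77.4, 96.1 and 89.8 RPKM at dusk and 4.50, 3.58, 7.15 and 4.50 RPKM at dawn (4.04 ± 0.14, adjusted p = 5.7e-06). PHS2 (AT3G46970), the cytosolic glucan phosphorylase, had 309, 212, 248 and 253 RPKM at dusk and 20.4, 17.39, 18.19 and 21.0 RPKM at dawn (3.65 ± 0.10, adjusted p = 2e-06). Its plastid counterpart PHS1 (AT3G29320) had 154, 202, 194 and 196 RPKM at dusk and 9.70, 27.1, 29.5 and 22.8 RPKM at dawn (3.11 ± 0.19, adjusted p = 4.1e-05). In all 3 the lowest dusk library exceeded the highest dawn library at least 5-fold.

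BAM5 (AT4G15210), a beta-amylase found outside the chloroplast, ranged widely between genotypes, with 399, 21.2, 149.9 and 19.8 RPKM at dusk and 0.184, 0.198, 1.01 and 0.473 RPKM at dawn (5.66 ± 0.68, adjusted p = 0.0007). Col and ColxC24 were high at dusk, and C24 and C24xCol stood near 20 RPKM. Both plastid beta-amylases named here went the other way. BAM1 (AT3G23920) had 30.3, 22.4, 29.1 and 30.0 RPKM at dusk and 77.4, 122, 83.5 and 86.7 RPKM at dawn (-1.68 ± 0.18, adjusted p = 0.00044). BAM3 (AT4G17090), the main beta-amylase of leaf starch, had 804, 769, 909 and 984 RPKM at dusk and 1697, 1139.5, 1007 and 1106 RPKM at dawn (-0.49 ± 0.17, adjusted p = 0.046), and the call was lost in 9 of 16 alternatives, without the Col, C24, ColxC24 and C24xCol pairs in turn (adjusted p = 0.14, 0.098, 0.054 and 0.056), and with median-of-ratios scaling, no filter on low values, the highest gene model alone, genotype left out of the model and all 12 libraries in the fit (adjusted p = 0.051 to 0.17). At midday BAM3 was far below either, with 66.0 to 245 RPKM. PGLCT (AT5G16150), the plastid glucose exporter, had 44.2 to 63.2 RPKM at dusk and 65.4 to 84.1 RPKM at dawn (-0.38 ± 0.11, adjusted p = 0.027), and the call was lost in 6 of 16 alternatives, without the Col, C24 and C24xCol pairs in turn (adjusted p = 0.084, 0.064 and 0.11), and with the highest gene model alone, genotype left out of the model and all 12 libraries in the fit (adjusted p = 0.052 to 0.066).

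Starch synthesis was mixed, with 10 of 16 genes called higher at dusk (62.5%, against 23.6% of all tested loci), 2 lower (12.5%, against 25.5%) and 4 not called (median change 0.68). APL3 (AT4G39210), a large subunit of ADP-glucose pyrophosphorylase, averaged 30.3 ± 10.2 RPKM at dusk and 3.95 ± 0.804 RPKM at dawn (SD, n = 4 genotypes; 2.60 ± 0.17, adjusted p = 5.8e-05). APL2 (AT1G27680), another large subunit, averaged 12.2 ± 1.64 RPKM at dusk and 3.29 ± 0.521 RPKM at dawn. The branching enzyme SBE2.1 (AT2G36390) averaged 94.4 ± 12.2 RPKM at dusk and 34.0 ± 3.32 RPKM at dawn. The debranching subunit ISA2 (AT1G03310) averaged 45.1 ± 5.95 RPKM at dusk and 17.9 ± 3.56 RPKM at dawn. The largest change of the list ran the other way, in GBSS1 (AT1G32900), which makes amylose. It had 5.56, 4.31, 8.99 and 9.59 RPKM at dusk and 286, 114, 173 and 173 RPKM at dawn (-4.51 ± 0.23, adjusted p = 2.1e-05). SS2 (AT3G01180), a starch synthase, averaged 22.8 ± 3.76 RPKM at dusk and 38.1 ± 3.39 RPKM at dawn (-0.73 ± 0.10, adjusted p = 0.0015).

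Light-harvesting antenna genes were mostly lower at dusk and highest at midday. Of 20 genes, 12 were called lower at dusk (60.0%, against 25.5% of all tested loci), 7 of them at least 2-fold (35%, against 6.82%), 2 were called higher (10.0%, against 23.6%) and 6 were not called (median change -0.79). The mean at ZT6 was the highest of the 3 times in 17 of the 20, against 16.6% of all tested loci (2850). LHCB1.1 (AT1G29920), a chlorophyll a/b protein of photosystem II, had 151, 178, 423 and 407 RPKM at dusk and 1459.9, 3229.8, 3763 and 3458 RPKM at dawn (-3.42 ± 0.19, adjusted p = 2.9e-05). At midday it reached 8643 to 11885 RPKM. LHCB2.1 (AT2G05100) had 82.2, 66.5, 81.2 and 100.2 RPKM at dusk and 761, 588, 947 and 1081 RPKM at dawn (-3.32 ± 0.11, adjusted p = 4.4e-06). LHCB1.4 (AT2G34430) averaged 94.8 ± 44.0 RPKM at dusk and 716 ± 237 RPKM at dawn (SD, n = 4 genotypes). LHCB2.2 (AT2G05070) had 49.6 to 75.0 RPKM at dusk and 149 to 631 RPKM at dawn. No dusk library reached the lowest dawn library in any of these 4 genes. They were picked as the called members with the largest falls, which favours such separation.

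Members of the LHCB1 family are nearly identical and may share reads, so levels of single copies, LHCB1.1 and LHCB1.4 included, are uncertain. LHCB1.2 (AT1G29910) had 537, 1382, 1353 and 1347 RPKM at dusk and 362, 1288, 993 and 980.4 RPKM at dawn (0.39 ± 0.11, adjusted p = 0.025), and the call was lost in 6 of 16 alternatives, without the Col, ColxC24 and C24xCol pairs in turn (adjusted p = 0.098, 0.087 and 0.1), and with quantile normalization, no filter on low values and genotype left out of the model (adjusted p = 0.072 to 0.52). LHCB4.3 (AT2G40100), a minor antenna protein, averaged 306 ± 100.1 RPKM at dusk and 246 ± 105 RPKM at dawn (0.38 ± 0.13, adjusted p = 0.047), and the call was lost in 11 of 16 alternatives, without the Col, C24 and C24xCol pairs in turn (adjusted p = 0.17, 0.096 and 0.12), and with median-of-ratios scaling, quantile normalization, rescaling to nuclear loci, a pseudocount of 5, no filter on low values, the highest gene model alone, genotype left out of the model and no variance trend (adjusted p = 0.0502 to 0.49). LHCB1.3 (AT1G29930), named after its values were seen as the most abundant antenna gene, had 7929, 10938, 11138 and 12168 RPKM at dusk and 7770.4, 9471, 10882 and 12539.5 RPKM at dawn. It was not called (0.057 ± 0.11, adjusted p = 0.69), although quantile normalization gave it 0.40 with an adjusted p of 0.012.

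Calvin cycle genes, which fix carbon dioxide, showed small differences. Of 17 genes, 13 were not called (76.5%, against 50.9% of all tested loci), 3 were called lower (17.65%, against 25.5%) and 1 higher (5.88%, against 23.6%), none of them at least 2-fold, with a median change of -0.080. RCA (AT2G39730), rubisco activase, had 5638, 6658, 7006 and 6891 RPKM at dusk and 11599.8, 12335, 13675 and 14274 RPKM at dawn (-0.99 ± 0.11, adjusted p = 0.00044), close to a 2-fold step in each genotype. GAPA (AT3G26650), a glyceraldehyde phosphate dehydrogenase subunit, averaged 2037 ± 276 RPKM at dusk and 3184 ± 259 RPKM at dawn. The aldolase FBA1 (AT2G21330) averaged 1914 ± 151 RPKM at dusk and 2670.1 ± 388 RPKM at dawn. TKL1 (AT3G60750), the transketolase that rose, averaged 2126 ± 99.7 RPKM at dusk and 1442 ± 187 RPKM at dawn (SD, n = 4 genotypes). The RCA and FBA1 calls were each lost in 1 of 16 alternatives, testing with no filter on low values (adjusted p = 0.077 and 0.078).

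Chlorophyll synthesis genes had no common direction. Of 20 tested genes of 21, 8 were called higher at dusk (40.0%, against 23.6% of all tested loci), 6 lower (30.0%, near the 25.5% of all tested loci) and 6 were not called (median change 0.19). Lower at dusk was HEMA1 (AT1G58290), glutamyl-tRNA reductase at the entry to the pathway, with 63.8, 60.6, 101 and 82.8 RPKM at dusk and 350.3, 461, 431 and 454 RPKM at dawn (-2.47 ± 0.14, adjusted p = 3.2e-05). CAO (AT1G44446), which makes chlorophyll b, had 25.5, 14.8, 26.4 and 25.3 RPKM at dusk and 173, 186, 195 and 201 RPKM at dawn (-3.02 ± 0.15, adjusted p = 2e-05). CHLH (AT5G13630), a subunit of magnesium chelatase, averaged 316 ± 50.2 RPKM at dusk and 916 ± 110.0 RPKM at dawn. Its regulator GUN4 (AT3G59400) averaged 133 ± 15.3 RPKM at dusk and 363 ± 35.5 RPKM at dawn (SD, n = 4 genotypes). For all 4 the midday mean was within 1.5 times the dawn mean, and dusk stood below both.

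Higher at dusk were PORB (AT4G27440) and PORC (AT1G03630), the light-dependent protochlorophyllide reductases. PORB had 399.5, 310.0, 421 and 438 RPKM at dusk and 98.4, 127, 165 and 119.5 RPKM at dawn (1.63 ± 0.15, adjusted p = 0.00023). PORC had 331, 333, 313 and 319 RPKM at dusk and 126, 112, 144 and 86.0 RPKM at dawn (1.49 ± 0.14, adjusted p = 0.00024). The divinyl reductase PCB2 (AT5G18660) averaged 178 ± 9.57 RPKM at dusk and 78.8 ± 17.0 RPKM at dawn. GSA2 (AT3G48730), an aminotransferase early in the pathway, averaged 191 ± 27.4 RPKM at dusk and 109 ± 17.7 RPKM at dawn (SD, n = 4 genotypes). None of the 4 overlapped between the times, but they were picked as the called members with the largest rises, which favours such separation.

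Genes that respond to sugar shortage were mostly lower at dusk. Of 14 tested genes of 15, 10 were called lower at dusk (71.4%, against 25.5% of all tested loci), all at least 2-fold (against 6.82%), 1 was called higher (7.14%, against 23.6%) and 3 were not called (median change -1.64). BXL1 (AT5G49360), a beta-xylosidase of the cell wall induced by sugar depletion, had 2.07, 1.33, 0.666 and 0.835 RPKM at dusk and 277, 25.4, 39.5 and 71.5 RPKM at dawn (-4.98 ± 0.41, adjusted p = 0.00016). Col stood far above the rest at dawn. Among class II trehalose phosphate synthase genes TPS9 (AT1G23870) averaged 0.878 ± 0.611 RPKM at dusk and 27.7 ± 7.90 RPKM at dawn (SD, n = 4 genotypes). TPS10 (AT1G60140) averaged 2.70 ± 0.721 RPKM at dusk and 29.6 ± 6.75 RPKM at dawn, and TPS8 (AT1G70290) was close to it at both times. Their relative TPS5 (AT4G17770) was the member called higher, with 16.5, 15.5, 22.1 and 24.6 RPKM at dusk and 3.73, 4.06, 5.27 and 4.37 RPKM at dawn (1.93 ± 0.12, adjusted p = 4.1e-05).

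Most nitrate and ammonium assimilation genes were lower at dusk. Of 10 genes, 6 were called lower (60.0%, against 25.5% of all tested loci), 1 higher (10.0%, against 23.6%) and 3 were not called (median change -0.60). Both nitrate reductase genes fell. NIA1 (AT1G77760) had 7.44, 13.0, 7.28 and 7.03 RPKM at dusk and 265, 496, 320.3 and 452 RPKM at dawn (-5.31 ± 0.15, adjusted p = 2e-06), with C24 highest at each time. NIA2 (AT1G37130), the more abundant, had 213, 356, 278 and 292 RPKM at dusk and 3174, 2546, 2012 and 3152 RPKM at dawn (-3.25 ± 0.19, adjusted p = 3.3e-05). GLT1 (AT5G53460), NADH-dependent glutamate synthase, averaged 40.3 ± 2.06 RPKM at dusk and 151 ± 41.0 RPKM at dawn. UPM1 (AT5G40850), which serves the siroheme cofactor of nitrite and sulfite reductases, averaged 63.8 ± 12.01 RPKM at dusk and 213 ± 50.8 RPKM at dawn (SD, n = 4 genotypes). One member went the other way. The cytosolic glutamine synthetase gene GLN1.3 (AT3G17820) was called higher, with 15.7 to 17.3 RPKM at dusk and 8.98 to 14.4 RPKM at dawn (0.57 ± 0.13, adjusted p = 0.01), and the call was lost in 1 of 16 alternatives, without the C24xCol pair (adjusted p = 0.054).

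In sulfate assimilation 3 of 8 genes were called lower (37.5%, against 25.5% of all tested loci), 2 higher (25.0%, against 23.6%) and 3 were not called (median change -0.11), a split close to that of all tested loci. The APS reductase genes went opposite ways. APR2 (AT1G62180) had 142, 111, 148 and 153 RPKM at dusk and 738, 726, 675 and 801 RPKM at dawn (-2.41 ± 0.11, adjusted p = 1.6e-05). APR1 (AT4G04610) had 111, 75.2, 103 and 105 RPKM at dusk and 51.2, 33.4, 41.1 and 61.3 RPKM at dawn (1.08 ± 0.12, adjusted p = 0.00044). ATP sulfurylase genes split too. APS3 (AT4G14680) averaged 37.3 ± 6.18 RPKM at dusk and 25.4 ± 2.25 RPKM at dawn (0.53 ± 0.11, adjusted p = 0.0062). APS4 (AT5G43780) averaged 24.6 ± 5.90 RPKM at dusk and 38.6 ± 8.47 RPKM at dawn (-0.63 ± 0.11, adjusted p = 0.0039), and its call was lost in the fit to all 12 libraries (adjusted p = 0.12). APS1 (AT3G22890) averaged 359 ± 21.5 RPKM at dusk and 474 ± 86.8 RPKM at dawn (-0.38 ± 0.11, adjusted p = 0.027), and the call was lost in 3 of 16 alternatives, without the ColxC24 and C24xCol pairs in turn (adjusted p = 0.068 and 0.14), and with no filter on low values (adjusted p = 0.052).

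Flavonoid and phenylpropanoid genes had no common direction. Of 16 tested genes of 17, 5 were called higher at dusk (31.2%, against 23.6% of all tested loci), 3 lower (18.8%, against 25.5%) and 8 were not called (50.0%, against 50.9%), so the counts lay close to those of all tested loci. The median change was 0.76. FLS1 (AT5G08640), flavonol synthase, had 155, 75.5, 101 and 94.9 RPKM at dusk and 36.0, 15.9, 42.4 and 23.9 RPKM at dawn (1.86 ± 0.16, adjusted p = 0.00021). MYB111 (AT5G49330), an activator of flavonol synthesis, had 21.2, 10.8, 16.4 and 16.2 RPKM at dusk and 5.65, 3.97, 7.37 and 6.43 RPKM at dawn (1.32 ± 0.13, adjusted p = 0.00034). CHI (AT3G55120), chalcone isomerase, averaged 40.4 ± 4.33 RPKM at dusk and 21.4 ± 3.36 RPKM at dawn (SD, n = 4 genotypes). These 3 genes were higher at dusk in all 4 genotypes. CHS (AT5G13930), chalcone synthase, had 1019, 318, 567 and 577 RPKM at dusk and 344, 201, 521 and 317 RPKM at dawn (0.80 ± 0.21, adjusted p = 0.018), and the call was lost in 4 of 16 alternatives, without the C24xCol pair (adjusted p = 0.059), and with no filter on low values, genotype left out of the model and all 12 libraries in the fit (adjusted p = 0.061 to 0.12). At the head of the pathway PAL2 (AT3G53260), a phenylalanine ammonia-lyase, fell, with 94.9, 31.1, 46.0 and 41.2 RPKM at dusk and 373, 143, 265 and 263 RPKM at dawn (-2.32 ± 0.13, adjusted p = 3.3e-05). The light-signalling factor HY5 (AT5G11260) averaged 11.5 ± 0.909 RPKM at dusk and 16.4 ± 1.302 RPKM at dawn. The ligase 4CL1 (AT1G51680) averaged 72.6 ± 4.55 RPKM at dusk and 98.6 ± 16.3 RPKM at dawn, where the call was lost in 3 of 16 alternatives, without the Col, ColxC24 and C24xCol pairs in turn (adjusted p = 0.074, 0.1 and 0.075).

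Anthocyanin genes, named after their values were seen, were high in a single library, Col at dusk. DFR (AT5G42800), dihydroflavonol reductase, had 44.6, 0, 0.216 and 0.0303 RPKM at dusk and 0.0439, 0.0638, 0.119 and 0.141 RPKM at dawn. LDOX (AT4G22880), anthocyanidin synthase, had 56.3, 0.323, 0.374 and 0.131 RPKM at dusk and 0.190, 0.277, 0.161 and 0.0921 RPKM at dawn. The glycosyltransferase UF3GT (AT5G54060) had 31.5, 0, 0.197 and 0.0276 RPKM at dusk and 0.320, 0.0291, 0.135 and 0.0773 RPKM at dawn. Each of these was a single high library among 8. The flavonoid hydroxylase TT7 (AT5G07990), also above 1 RPKM in Col at dawn, had 9.76, 0.264, 0.343 and 0.224 RPKM at dusk and 1.59, 0.520, 0.594 and 0.649 RPKM at dawn. Outside Col these 4 genes stayed under 0.7 RPKM at both times, and none was called. Without the Col pair their changes were -0.039 for DFR, 0.11 for LDOX, -0.011 for UF3GT and -0.31 for TT7. The activator PAP1 (AT1G56650) was also highest in Col, with 21.6, 0.0884, 1.06 and 1.305 RPKM at dusk and 0, 0, 0.0442 and 0.0420 RPKM at dawn (1.68 ± 0.63, adjusted p = 0.06). It was called at a pseudocount of 0.1 (adjusted p = 0.020) or 0.5 (adjusted p = 0.041) and without the Col or the C24 pair (adjusted p = 0.041 and 0.036).

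Aliphatic glucosinolate synthesis, which makes the defence compounds of the mustard family from methionine, was high at dusk. Of 14 genes, 10 were called higher at dusk (71.4%, against 23.6% of all tested loci), 8 of them at least 2-fold (57.1%, against 5.24%), none was called lower and 4 were not called (median change 1.02). In 12 of the 14 the mean was highest at midday, against 16.6% of all tested loci. CYP79F1 (AT1G16410) had 223, 213, 275 and 278 RPKM at dusk and 31.4, 117, 94.9 and 80.3 RPKM at dawn (1.74 ± 0.27, adjusted p = 0.0021). MAM1 (AT5G23010), which elongates the methionine chain, had 346, 330.2, 365 and 394 RPKM at dusk and 69.7, 179, 144 and 133 RPKM at dawn (1.52 ± 0.21, adjusted p = 0.0013). The aminotransferase BCAT4 (AT3G19710) averaged 219 ± 41.4 RPKM at dusk and 86.9 ± 40.3 RPKM at dawn (SD, n = 4 genotypes). BCAT3 (AT3G49680) averaged 168 ± 18.7 RPKM at dusk and 69.6 ± 8.73 RPKM at dawn. By genotype, the median change of the list was 0.87 (ColxC24) and 1.06 (C24xCol) for the hybrids and 1.48 (Col) and 0.48 (C24) for the parents. For CYP79F1, MAM1, BCAT4 and BCAT3 the Col dawn library was the lowest of the 8.

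Growth genes were mostly lower at dusk: of 8 tested genes of 13, 5 were called lower (62.5%, against 25.5% of all tested loci), 1 higher (12.5%, against 23.6%) and 2 were not called (median change -0.996). PIF5 (AT3G59060), a bHLH factor that promotes elongation, had 4.61, 4.31, 3.12 and 4.38 RPKM at dusk and 15.4, 21.6, 13.7 and 30.0 RPKM at dawn (-2.0004 ± 0.16, adjusted p = 0.00014). Its relative PIF4 (AT2G43010) was higher at dusk, with 2.99, 2.22, 2.73 and 2.44 RPKM at dusk and 0.307, 0.149, 0.115 and 0.132 RPKM at dawn (1.61 ± 0.13, adjusted p = 0.00012). Both were far higher at midday, PIF5 at 54.5 to 61.7 RPKM and PIF4 at 39.0 to 62.6 RPKM. The expansin EXPA8 (AT2G40610) averaged 4.31 ± 1.26 RPKM at dusk and 34.5 ± 7.64 RPKM at dawn. The wall enzyme XTH33 (AT1G10550) averaged 0.931 ± 0.417 RPKM at dusk and 13.7 ± 7.29 RPKM at dawn. The touch-induced xyloglucan enzyme TCH4 (AT5G57560) averaged 3.87 ± 1.95 RPKM at dusk and 13.1 ± 7.99 RPKM at dawn (SD, n = 4 genotypes). TCH4 lost its call in the fit to all 12 libraries (adjusted p = 0.056).

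Cold-response genes were few at these levels: 7 of 12 were tested, and 4 were called higher at dusk (57.1%, against 23.6% of all tested loci), 1 lower (14.3%, against 25.5%) and 2 were not called (median change 1.02). COR15A (AT2G42540) and COR15B (AT2G42530), a near-identical pair of chloroplast protectants, were higher at dusk. COR15A had 76.0, 7.84, 49.2 and 71.5 RPKM at dusk and 3.85, 2.07, 4.52 and 3.33 RPKM at dawn (3.19 ± 0.39, adjusted p = 0.00074). COR15B had 54.5, 14.6, 50.0 and 60.4 RPKM at dusk and 2.19, 3.72, 7.11 and 3.12 RPKM at dawn (3.10 ± 0.37, adjusted p = 0.00069). C24 was the lowest dusk library in both. KIN1 (AT5G15960) had 2.01 to 6.13 RPKM at dusk and 0.217 to 2.001 RPKM at dawn (1.24 ± 0.36, adjusted p = 0.025), and the call was lost in 5 of 15 alternatives, without the Col, ColxC24 and C24xCol pairs in turn (adjusted p = 0.057, 0.06 and 0.082), and with no filter on low values and all 12 libraries in the fit (adjusted p = 0.084 to 0.23), its change being 0.80 without Col. RD29A (AT5G52310) had 1.37 to 6.86 RPKM at dusk and 0.808 to 3.31 RPKM at dawn (1.02 ± 0.33, adjusted p = 0.036), and the call was lost in 6 of 15 alternatives, without the Col, ColxC24 and C24xCol pairs in turn (adjusted p = 0.071, 0.14 and 0.13), and with no filter on low values, genotype left out of the model and all 12 libraries in the fit (adjusted p = 0.087 to 0.33). Dusk and dawn overlapped for RD29A and lay edge to edge for KIN1. The dehydrin COR47 (AT1G20440) was lower, with 20.6 to 37.5 RPKM at dusk and 60.3 to 72.5 RPKM at dawn (-1.23 ± 0.16, adjusted p = 0.0009), and lost its call in the fit to all 12 libraries (adjusted p = 0.15). At midday COR15A, RD29A and COR47 reached 1768, 216 and 301 RPKM in Col and stayed under 130 RPKM in the other 3 genotypes.

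The jasmonate and wounding list held the largest rise of all loci named, VSP1. Of 9 tested genes of 10, 8 were called higher at dusk (88.9%, against 23.6% of all tested loci), all at least 2-fold (against 5.24%), none was called lower and 1 was not called (median change 2.36). In 8 of the 9 the mean was highest at midday, against 16.6% of all tested loci. LOX2 (AT3G45140), the chloroplast lipoxygenase that starts jasmonate synthesis, had 3290.2, 2119.9, 3553 and 2354 RPKM at dusk and 191, 273, 354 and 187 RPKM at dawn (3.51 ± 0.18, adjusted p = 2.5e-05). AOS (AT5G42650), the enzyme after it, had 323, 218, 332 and 240.1 RPKM at dusk and 55.2, 49.1, 57.4 and 42.0 RPKM at dawn (2.41 ± 0.11, adjusted p = 1.3e-05). Dusk and dawn did not overlap in either gene. The vegetative storage proteins, induced by jasmonate, ranged over the genotypes by orders of magnitude. VSP1 (AT5G24780) had 1597, 10.4, 496 and 21.4 RPKM at dusk and 0.275, 0.120, 0.299 and 0.248 RPKM at dawn (6.60 ± 1.09, adjusted p = 0.0026). VSP2 (AT5G24770) had 926, 1.86, 124 and 8.41 RPKM at dusk and 3.33, 0.268, 1.42 and 0.635 RPKM at dawn (4.28 ± 0.96, adjusted p = 0.0093). At dusk Col was highest, ColxC24 next, and C24xCol and C24 far below. At midday both hybrids were above 200 RPKM in both genes. The VSP2 call was lost with genotype left out of the model (adjusted p = 0.062).

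Salicylic acid and defence genes carried a large difference between genotypes beside that between times. Of 12 tested genes of 14, 7 were called higher at dusk (58.3%, against 23.6% of all tested loci), 2 lower (16.7%, against 25.5%) and 3 were not called (median change 0.47). PR1 (AT2G14610), a marker of systemic resistance, had 0.885, 1158, 54.6 and 35.3 RPKM at dusk and 7.92, 1019, 32.5 and 24.8 RPKM at dawn. C24 exceeded the other genotypes at both times, and PR1 was not called (-0.21 ± 0.45, adjusted p = 0.73). Without the Col pair PR1's change was 0.47 (adjusted p = 0.038). PR5 (AT1G75040) had 57.2, 477, 73.4 and 81.0 RPKM at dusk and 12.8, 257, 30.4 and 35.2 RPKM at dawn (1.35 ± 0.19, adjusted p = 0.0012), higher at dusk in each genotype. WRKY54 (AT2G40750), a defence regulator, had 30.8, 75.4, 41.7 and 46.8 RPKM at dusk and 1.34, 35.6, 2.63 and 13.2 RPKM at dawn (2.54 ± 0.44, adjusted p = 0.0032). NIMIN1 (AT1G02450), which binds the salicylic acid receptor NPR1, had 3.04, 17.8, 5.89 and 6.31 RPKM at dusk and 0.220, 9.62, 0.149 and 0.852 RPKM at dawn (1.78 ± 0.26, adjusted p = 0.0015). As for PR1 and PR5, C24 was highest in both at either time. WRKY70 (AT3G56400), a relative of WRKY54, had 82.1, 250.2, 116 and 125 RPKM at dusk and 14.9, 343, 21.7 and 69.1 RPKM at dawn (1.29 ± 0.45, adjusted p = 0.047), and the call was lost in 10 of 16 alternatives, without the Col, ColxC24 and C24xCol pairs in turn (adjusted p = 0.15, 0.19 and 0.076), and with quantile normalization, a pseudocount of 5, no filter on low values, the highest gene model alone, genotype left out of the model, all 12 libraries in the fit and no variance trend (adjusted p = 0.051 to 0.28).

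The members called lower were PAD4 and ICS1, while 3 members not named here were called higher by 0.436 to 0.495. PAD4 (AT3G52430), a lipase-like regulator of salicylic acid, had 8.26, 36.5, 12.7 and 11.4 RPKM at dusk and 18.4, 73.4, 16.6 and 26.1 RPKM at dawn (-0.89 ± 0.15, adjusted p = 0.0025), lower at dusk in each genotype. ICS1 (AT1G74710), isochorismate synthase, which makes most of the salicylic acid, had 3.22, 12.8, 5.36 and 3.55 RPKM at dusk and 3.23, 24.5, 7.63 and 7.06 RPKM at dawn (-0.54 ± 0.16, adjusted p = 0.028), and the call was lost in 7 of 16 alternatives, without the C24, ColxC24 and C24xCol pairs in turn (adjusted p = 0.082, 0.071 and 0.12), and with no filter on low values, the highest gene model alone, genotype left out of the model and all 12 libraries in the fit (adjusted p = 0.066 to 0.48). For PR5, NIMIN1 and PAD4, where C24 held the highest level at each time, the call was lost with genotype left out of the model (adjusted p = 0.29, 0.088 and 0.23).

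Abscisic acid and drought genes were split. Of 12 tested genes of 15, 3 were called higher (25.0%, against 23.6% of all tested loci), 4 lower (33.3%, against 25.5%) and 5 were not called (median change -0.11), shares close to those of all tested loci. HAB1 (AT1G72770), a phosphatase that holds abscisic acid signalling down, had 7.60, 8.08, 9.76 and 10.6 RPKM at dusk and 53.6, 44.1, 34.4 and 41.9 RPKM at dawn (-2.15 ± 0.16, adjusted p = 0.00011). NCED4 (AT4G19170), a carotenoid dioxygenase, averaged 17.7 ± 2.19 RPKM at dusk and 62.4 ± 10.2 RPKM at dawn. Its relative NCED3 (AT3G14440), which serves abscisic acid synthesis, averaged 0.656 ± 0.224 RPKM at dusk and 1.66 ± 0.156 RPKM at dawn. The homeobox gene HB-12 (AT3G61890) averaged 2.51 ± 1.03 RPKM at dusk and 12.7 ± 3.90 RPKM at dawn (SD, n = 4 genotypes). Called higher was the phosphatase HAI1 (AT5G59220), with 0.710 to 3.02 RPKM at dusk and 0.183 to 0.983 RPKM at dawn. So was its relative ABI1 (AT4G26080), with 18.8 to 23.2 RPKM at dusk and 11.03 to 16.4 RPKM at dawn. The dehydrin RAB18 (AT5G66400) had 12.2, 27.9, 19.4 and 30.7 RPKM at dusk and 9.51, 20.7, 14.8 and 9.52 RPKM at dawn (0.67 ± 0.22, adjusted p = 0.036), and the call was lost in 5 of 16 alternatives, without the ColxC24 and C24xCol pairs in turn (adjusted p = 0.063 and 0.07), and with no filter on low values, genotype left out of the model and all 12 libraries in the fit (adjusted p = 0.098 to 0.16), its change being 0.37 without C24xCol. In the fit to all 12 libraries the calls of HAI1, ABI1 and NCED3 were lost (adjusted p = 0.13, 0.051 and 0.077).

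Of the heat shock list 5 of 10 genes were tested, 4 called higher at dusk (80.0%, against 23.6% of all tested loci) and 1 lower (20.0%, against 25.5%), with a median change of 0.90. The chaperone HSP70 (AT3G12580) had 15.3, 15.7, 9.96 and 10.45 RPKM at dusk and 1.12, 2.11, 0.778 and 0.994 RPKM at dawn (2.63 ± 0.12, adjusted p = 1.5e-05). HSP90.1 (AT5G52640), another chaperone, had 10.2, 11.8, 8.30 and 6.83 RPKM at dusk and 0.915, 2.19, 1.14 and 1.77 RPKM at dawn (2.04 ± 0.17, adjusted p = 0.00016). Neither overlapped between the times, and C24 held the highest level of both at each. The disaggregase HSP101 (AT1G74310) averaged 5.80 ± 0.852 RPKM at dusk and 2.64 ± 0.567 RPKM at dawn. The constitutive chaperone HSC70-1 (AT5G02500) averaged 1356 ± 75.9 RPKM at dusk and 803 ± 193 RPKM at dawn (SD, n = 4 genotypes). The small heat shock protein gene AT5G59720 had 0.693 to 2.05 RPKM at dusk and 1.87 to 2.63 RPKM at dawn (-0.41 ± 0.13, adjusted p = 0.04), and the call was lost in 7 of 15 alternatives, without the Col, C24, ColxC24 and C24xCol pairs in turn (adjusted p = 0.14, 0.061, 0.08 and 0.086), and with no filter on low values, genotype left out of the model and all 12 libraries in the fit (adjusted p = 0.063 to 0.15).

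Among oxidative stress genes 5 of 11 tested were called higher (45.5%, against 23.6% of all tested loci), 3 lower (27.3%, near the 25.5% of all tested loci) and 3 were not called (median change 0.12). The catalases were split. CAT3 (AT1G20620) had 625, 407, 724 and 538 RPKM at dusk and 99.7, 121, 97.9 and 144 RPKM at dawn (2.29 ± 0.20, adjusted p = 0.00019). CAT2 (AT4G35090), the leaf peroxisomal enzyme of photorespiration, had 349, 421, 579 and 597 RPKM at dusk and 2772, 1699.5, 1614 and 1730.4 RPKM at dawn (-2.002 ± 0.24, adjusted p = 0.00072). CAT1 (AT1G20630) averaged 38.6 ± 4.35 RPKM at dusk and 58.8 ± 7.59 RPKM at dawn (SD, n = 4 genotypes). The iron superoxide dismutases were split as well. FSD1 (AT4G25100) had 654 to 1097 RPKM at dusk and 1517 to 2078 RPKM at dawn. The plastid form FSD2 (AT5G51100) had 41.9 to 61.7 RPKM at dusk and 12.1 to 21.9 RPKM at dawn, and FSD3 (AT5G23310) was in the same range at both times. None of these superoxide dismutases overlapped between dusk and dawn, but they were picked for the size of their called change, which favours such separation. APX1 (AT1G07890), cytosolic ascorbate peroxidase, had 432, 817, 817 and 803 RPKM at dusk and 245, 439.9, 369.6 and 367 RPKM at dawn (0.99 ± 0.11, adjusted p = 0.00044).

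**Figure D4:**
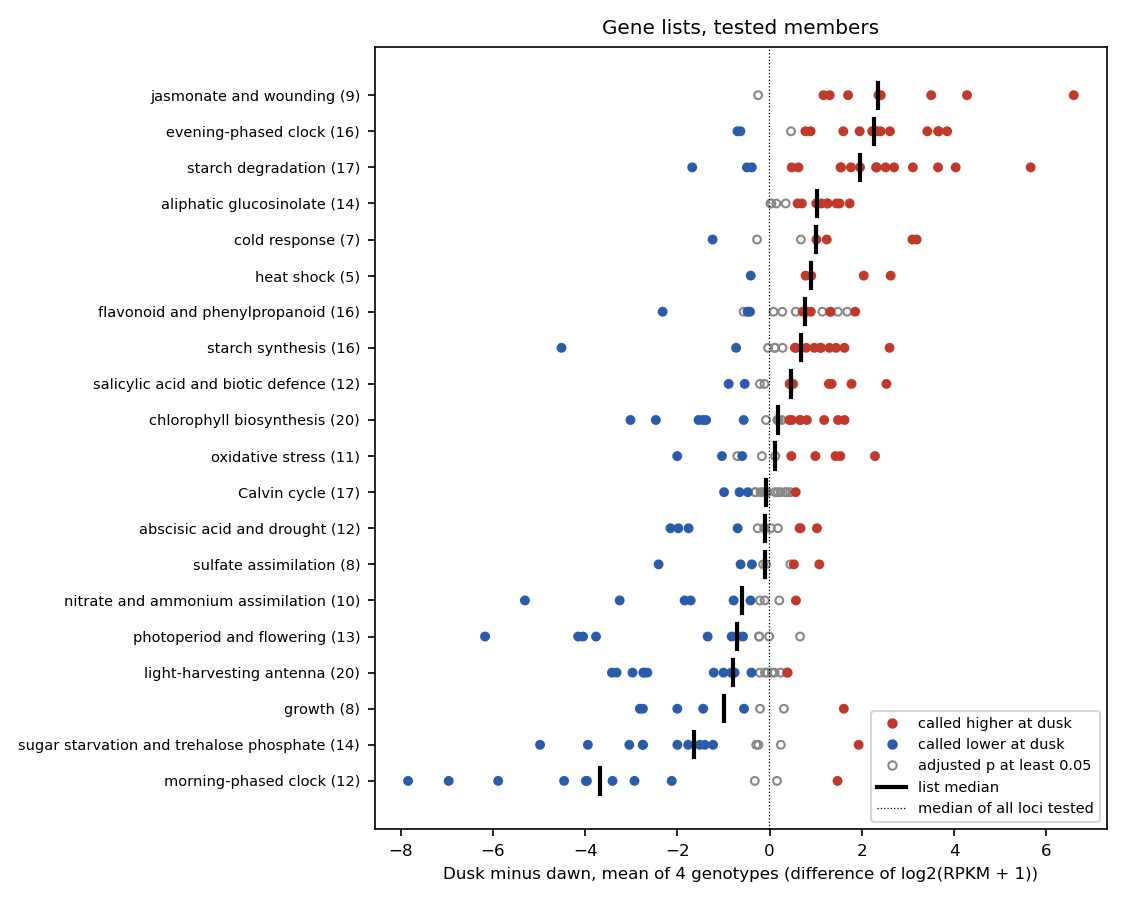
Dusk minus dawn (mean of 4 genotypes, difference of log2(RPKM + 1), horizontal axis) for the tested members of 20 gene lists, with the number tested in brackets. Bars mark list medians, from 2.36 for jasmonate and wounding to -3.68 for morning-phased clock genes, and the dotted line marks the median of all tested loci, -0.0040.

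Outside the lists, large rises were sought among called loci of at least 3 RPKM that moved the same way in every genotype. VSP1 and BAM5 led the 12 largest, followed by AT1G07050, a gene with a CCT motif as in CONSTANS, with 84.2, 52.4, 67.8 and 59.3 RPKM at dusk and 0.787, 0.624, 0.582 and 0.554 RPKM at dawn (5.33 ± 0.12, adjusted p = 1.2e-06). AT5G23240, a DNAJ-domain protein gene, had 230.3, 161, 156 and 152 RPKM at dusk and 5.15, 3.90, 3.91 and 3.41 RPKM at dawn (5.10 ± 0.095, adjusted p = 6.1e-07). The 4 genotypes lay between 4.99 and 5.23 log2 units. JMJD5 (AT3G20810), a histone demethylase-type oxygenase tied to the clock, had 61.2, 106, 62.8 and 66.9 RPKM at dusk and 5.34, 2.199, 2.02 and 3.17 RPKM at dawn (4.197 ± 0.25, adjusted p = 4e-05). At midday it was under 0.3 RPKM, so its whole rise came after ZT6. The Hsp70-family gene AT3G09440 averaged 524 ± 79.5 RPKM at dusk and 32.4 ± 14.1 RPKM at dawn (SD, n = 4 genotypes).

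The remaining 6 of the 12 included stress-annotated genes. CORI3 (AT4G23600), an aminotransferase-family gene induced by coronatine and jasmonate, had 494, 208, 482 and 299.6 RPKM at dusk and 13.8, 23.5, 17.2 and 11.2 RPKM at dawn (4.38 ± 0.30, adjusted p = 6.7e-05). The Kunitz-type protease inhibitor gene AT1G73325 had 89.1, 28.2, 85.8 and 29.2 RPKM at dusk and 0.624, 1.36, 1.39 and 0.862 RPKM at dawn (4.66 ± 0.34, adjusted p = 8.8e-05). As with VSP1, C24 was the lowest dusk library of both. AT4G30660, of a low temperature and salt responsive family, averaged 121 ± 17.42 RPKM at dusk and 4.23 ± 0.515 RPKM at dawn (SD, n = 4 genotypes). Its neighbour AT4G30650 averaged 169 ± 30.3 RPKM at dusk and 7.38 ± 1.63 RPKM at dawn. AT4G16146, annotated as a cAMP-regulated phosphoprotein, averaged 70.0 ± 13.97 RPKM at dusk and 1.44 ± 0.480 RPKM at dawn.

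Of the 12 largest falls, LHY, CCA1, COL2, RVE1, NIA1 and BXL1 are described above. SAG21 (AT4G02380), a late-embryogenesis-type protein gene of ageing and stressed leaves, had 10.7, 36.8, 19.0 and 13.8 RPKM at dusk and 1390.1, 1394, 455 and 1034 RPKM at dawn (-5.69 ± 0.35, adjusted p = 4.1e-05), the highest dawn level of the 12. BMY3 (AT5G18670), annotated as beta-amylase 3, had 9.20, 8.46, 10.3 and 9.65 RPKM at dusk and 543, 432, 369 and 411 RPKM at dawn (-5.39 ± 0.13, adjusted p = 1.4e-06). Despite its name it is a different locus from BAM3 (AT4G17090), and it was not in the starch degradation list. G3Pp1 (AT3G47420), a putative glycerol-3-phosphate transporter gene, had 1.76, 3.25, 3.12 and 3.26 RPKM at dusk and 114, 132, 91.9 and 129 RPKM at dawn (-4.94 ± 0.15, adjusted p = 2.9e-06). Dawn stood more than 10-fold above dusk in every genotype for these 3 genes. AT2G41250, a haloacid dehalogenase-like gene, averaged 2.34 ± 1.17 RPKM at dusk and 146 ± 31.6 RPKM at dawn (SD, n = 4 genotypes). AT4G15430, of the ERD family, averaged 0.571 ± 0.156 RPKM at dusk and 51.3 ± 13.8 RPKM at dawn. AT4G36850, of the PQ-loop repeat family, averaged 0.287 ± 0.0701 RPKM at dusk and 67.1 ± 31.2 RPKM at dawn.

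The 10 most abundant loci past 2-fold included LHCB1.1, NIA2 and LOX2. THI1 (AT5G54770), which makes the thiazole of vitamin B1, had 5641, 3976, 5635 and 5446 RPKM at dusk and 2400.5, 1480.1, 2789 and 2568 RPKM at dawn (1.19 ± 0.11, adjusted p = 0.00029). AT1G23310, glutamate:glyoxylate aminotransferase of photorespiration, had 746, 745, 877 and 825 RPKM at dusk and 2706, 3119, 2380.5 and 2552 RPKM at dawn (-1.75 ± 0.13, adjusted p = 9.6e-05). OEP6 (AT3G63160), an outer envelope protein gene of plastids, averaged 2748 ± 127 RPKM at dusk and 983 ± 198 RPKM at dawn (SD, n = 4 genotypes). PCC1 (AT3G22231), named for control by pathogens and the clock, had 2341, 3275, 3173 and 3519.7 RPKM at dusk and 161, 2456, 426 and 797 RPKM at dawn (2.33 ± 0.48, adjusted p = 0.0065). C24 was already high at dawn. AT5G42530, an uncharacterized gene, had 4269, 6417, 7031 and 6112 RPKM at dusk and 1003, 6841, 2859 and 2605 RPKM at dawn (1.13 ± 0.31, adjusted p = 0.019), and the call was lost in 5 of 16 alternatives, without the Col, ColxC24 and C24xCol pairs in turn (adjusted p = 0.059, 0.076 and 0.06), and with no filter on low values and genotype left out of the model (adjusted p = 0.093 to 0.1).

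AT1G54040, the epithiospecifier protein that steers glucosinolate breakdown, had 115, 4429.6, 3031 and 2675 RPKM at dusk and 19.3, 2295, 1581 and 1643 RPKM at dawn (1.27 ± 0.28, adjusted p = 0.0088). Col stood far below the other 3 genotypes at both times, and with genotype left out of the model the adjusted p was 0.59. The chloroplast locus ATCG01210 had 1153, 1770.0, 2681 and 2288 RPKM at dusk and 446, 760.3, 305 and 1641 RPKM at dawn (1.55 ± 0.37, adjusted p = 0.012). It was called in 14 of its 15 alternatives, the exception being no filter (adjusted p = 0.055), and its change was 1.02 without ColxC24, the genotype whose chloroplast share differed most between the times.

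The genotypes differed in how far they swung. The hybrids ColxC24 and C24xCol had 974 and 1322 loci at least 2-fold higher at dusk, and the parents Col and C24 had 1461 and 741. At least 2-fold lower were 939 and 1397 loci of the hybrids and 1642 and 1423 loci of the parents, with genotypes in the same order. The SD of the dusk-minus-dawn difference over all tested loci was 0.734 for ColxC24 and 0.819 for C24xCol, against 0.911 for Col and 0.749 for C24. Median differences were 0.059 and 0.012 for ColxC24 and C24xCol, against 0.023 and -0.13 for Col and C24. With a single pair per genotype these counts have no error estimate. The dawn library of Col was the shallowest (16.6 M reads), and its bearing on these counts was not tested. Across the tested loci, which share libraries and are not replicates, the differences of the hybrids correlated at Pearson's r = 0.864 with each other. Those of Col correlated at 0.859 with ColxC24 and 0.871 with C24xCol, those of C24 at 0.777 with ColxC24 and 0.815 with C24xCol, and those of the parents at 0.748 with each other. Loci past 2-fold in exactly 1, 2, 3 or 4 genotypes numbered 969, 537, 377 and 331 upward and 902, 422, 405 and 610 downward, and 44 loci were at least 2-fold up in one genotype and down in another.

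Whether the change between dusk and dawn itself differed between hybrids and parents was tested as an interaction, with 2 residual degrees of freedom. Its error was the spread within the parents and within the hybrids, so any difference between Col and C24 widened it and made calls less likely. No locus was called (0%), 341 (1.99%) had an unadjusted p under 0.05, and the smallest adjusted p was 1.00, so no such difference was detectable with 1 library per genotype and time. The same test on the number of C24 alleles (0 in Col, 1 in the hybrids, 2 in C24) called no locus either (0%), with 2603 (15.2%) at an unadjusted p under 0.05 and a smallest adjusted p of 0.14. Some fits with a pair left out called loci, but they kept only 1 residual degree of freedom. Hybrids against parents then had a group of 1 pair. With the C24 pair left out, both tests were the same comparison, the hybrids against Col alone. Counts from these fits are therefore not read as differences between genotypes.

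**Figure D5:**
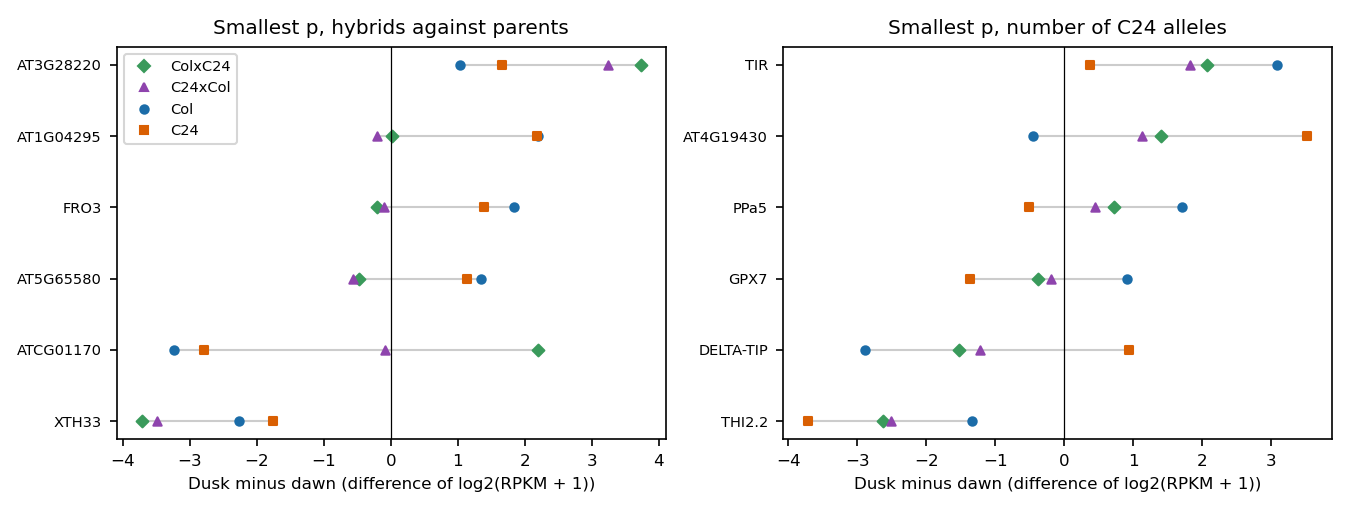
Dusk minus dawn (difference of log2(RPKM + 1), horizontal axis) in each of the 4 genotypes for the 6 loci with the smallest unadjusted p in each test of a difference between genotypes, none of which was called. For AT5G65580 and FRO3 both hybrids lie below 0 and both parents above, and for TIR, GPX7, PPa5, DELTA-TIP, THI2.2 and AT4G19430 the hybrids lie between Col and C24.

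The loci with the smallest p for hybrids against parents are given as a description. AT5G65580 (uncharacterized) differed by -0.47 and -0.57 in ColxC24 and C24xCol and by 1.35 and 1.14 in Col and C24, an interaction of -1.76 ± 0.24 (SE). FRO3 (AT1G23020), a ferric reductase gene, differed by -0.21 and -0.095 in the hybrids and 1.84 and 1.39 in the parents (-1.76 ± 0.25). AT1G04295 differed by 0.011 and -0.20 in the hybrids and 2.19 and 2.19 in the parents, and was at most 0.488 RPKM in the hybrids at dusk. AT3G28220 (TRAF-like) rose by 3.74 and 3.25 in the hybrids and 1.03 and 1.66 in the parents. XTH33 differed by -3.72 and -3.49 in the hybrids and -2.27 and -1.76 in the parents. The chloroplast locus ATCG01170 differed by 2.196 and -0.085 in the hybrids and -3.23 and -2.79 in the parents. AT1G04295 passed 0.05 for dusk against dawn only without C24xCol (adjusted p = 0.038), and ATCG01170 only without ColxC24 (adjusted p = 0.040).

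By number of C24 alleles, AT4G19430 (uncharacterized) differed by -0.45 in Col, 1.41 and 1.13 in the hybrids and 3.52 in C24, a slope of 1.98 ± 0.17 per allele (SE; limma, adjusted p = 0.14). DELTA-TIP (AT3G16240), a water channel gene of the vacuole membrane, had 223, 252, 206 and 229 RPKM at dusk, where the genotypes were alike, and 1663, 132, 597 and 536 RPKM at dawn, where Col was highest and C24 lowest (slope 1.91 ± 0.17). THI2.2 (AT5G36910), a thionin, fell, with changes of -1.34 in Col, -2.63 and -2.50 in the hybrids and -3.72 in C24. TIR (AT1G72930), a Toll/interleukin-1 receptor-like gene, rose by 3.09 in Col, 2.06 and 1.83 in the hybrids and 0.38 in C24. GPX7 (AT4G31870), a glutathione peroxidase gene, differed by 0.91 in Col, -0.38 and -0.19 in the hybrids and -1.37 in C24. For PPa5 (AT4G01480), a pyrophosphatase-type gene, the differences were 1.71 in Col, 0.72 and 0.45 in the hybrids and -0.51 in C24. For dusk against dawn, DELTA-TIP and PPa5 were called without C24 (adjusted p = 0.0044 and 0.019) and AT4G19430 without Col (adjusted p = 0.012). The TIR call was lost with genotype left out of the model (adjusted p = 0.072).

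For most loci called with a change of at least 2-fold, the midday mean lay between the dawn and dusk means. Over all tested loci the mean at ZT6 lay between the dawn and dusk means in 38.4%, above both in 16.6% and below both in 45.0%. Why more loci lay below both than above both was not tested. Of the 899 loci called at least 2-fold higher at dusk, the mean at ZT6 lay between the dawn and dusk means in 567 (63.1%), above both in 198 (22.0%) and below both in 134 (14.9%). Of the 1169 called at least 2-fold lower, it lay between them in 822 (70.3%), below both in 232 (19.8%) and above both in 115 (9.84%). These loci were selected for a wide gap between dawn and dusk, and a wide gap leaves more room for the midday mean to fall inside it. Their larger shares between the means, set against all tested loci, therefore cannot show a gradual course over the day. Among the rising genes, JMJD5 and COR27 were lower at midday than at both other times, and PRR7, PIF4, CYP79F1 and MAM1 were higher. In bulk leaf tissue a lower level cannot be told apart from fewer cells of the type that expresses the gene.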

How the data were processed

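Leaf mRNA was sequenced on the Illumina Genome Analyzer as 84 bp reads, 1 library for each genotype and time, and mapped to TAIR9 per the submitters' processing notes. Aligner, counting rule and strand: not given in the sources used here. The authors deposited 1 table per library, in which an RPKM value per gene model scales reads by model length and library total, per the file headers. Rows of the same locus were summed (38710 models, 32592 loci, of which 27970 have 1 model), those averaging 1 RPKM or more over the 8 libraries were kept, and log2(RPKM + 1) was fitted with limma 3.58.1 (R 4.3.3; time and genotype in the model, empirical Bayes with trend, Benjamini-Hochberg adjustment over 17147 loci, threshold 0.05, 3 residual degrees of freedom). Differences of the time effect between hybrids and parents, and by number of C24 alleles, were fitted to the 4 paired differences. Other values used Python 3.11.15 with pandas 2.3.3, numpy 2.4.6 and scipy 1.17.1. The fitting code was tested on simulated data.

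The libraries were paired by their genotype label. Deviations from the time means of the dusk and dawn library of a genotype correlated at 0.659 for Col, 0.674 for C24, 0.161 for ColxC24 and 0.202 for C24xCol. The highest correlation of a dusk library with another genotype's dawn library was 0.206 for Col, 0.0760 for C24, 0.258 for ColxC24 and 0.216 for C24xCol, so each hybrid correlated better with another genotype than with its own. Because each genotype stands in for a replicate, p-values measure the spread between genotypes, not between plants.

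Loci named are the 12 largest called changes each way averaging 3 RPKM or more with 1 direction in all genotypes; up to 4 called members each way of each gene list, with 13 clock, flowering and defence genes always; the 6 smallest p of each genotype test; and the 10 most abundant called loci past 2-fold. Others are said to be chosen after their values were seen. The comparison, its members and the lists were chosen with earlier results of these data known. A list of cytosolic ribosomal protein genes was not analysed here. Alternatives changed the scaling, pseudocount, filter, summing of models, genotype term, number of libraries and variance trend, and left out each genotype's pair in turn. Names, starts and upstream sequences came from RefSeq (TAIR10.1), which named 31786 of the 32592 loci.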

Additional observations from a re-analysis of the deposited data

Results flagged for a closer look

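In 35 of 338 groups of 4 libraries (the 169 genes named, at dusk and at dawn) 1 library stood apart from the other 3: its gap to the nearest of them, over the group's range, exceeded Dixon's 95% critical value. Chance flags about 1 in 20 such groups, and whether these libraries differ for technical or biological reasons was not tested.

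Col was the library apart most often. At dusk it was lowest for APX1 (432 RPKM), AT1G54040 (115 RPKM), G3Pp1 (1.76 RPKM), LHCB1.2 (537 RPKM), PHS1 (154 RPKM) and FLC (0.0895 RPKM). It was highest at dusk for AT2G41250 (4.09 RPKM), AT5G23240 (230.3 RPKM), FT (18.4 RPKM) and PRR7 (3.56 RPKM), and for the anthocyanin genes DFR (44.6 RPKM), LDOX (56.3 RPKM), TT7 (9.76 RPKM) and UF3GT (31.5 RPKM). At dawn Col was lowest for AT1G54040 (19.3 RPKM), FLC (0.139 RPKM), LHCB1.1 (1459.9 RPKM) and LHCB2.2 (149 RPKM), and highest for CAT2 (2772 RPKM), CO (9.51 RPKM), FT (4.39 RPKM) and TT7 (1.59 RPKM).

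C24 at dusk was lowest for BAM1 (22.4 RPKM), CAO (14.8 RPKM), COR15B (14.6 RPKM), THI1 (3976 RPKM) and TKL1 (1979 RPKM). It was highest at dusk for JMJD5 (106 RPKM), NIA1 (13.0 RPKM), PR5 (477 RPKM) and XTH33 (1.55 RPKM), and highest at dawn for HAI1 (0.983 RPKM) and PRR9 (0.127 RPKM). Of the hybrids, ColxC24 at dawn stood apart as lowest for ELF4 (1.17 RPKM) and as highest for PCB2 (104 RPKM).

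Both hybrids moved one way and both parents the other at AT5G65580 and FRO3, with interactions of -1.76 and -1.76 on the log2 scale. These were tested and did not pass adjustment (limma, adjusted p = 1.00 for both). At midday, outside the comparison, LNK1 and PRR9 had at least 33.9 and 15.6 RPKM in each library, although both fell below the filter at dusk and dawn.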

How the results depend on the processing

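The direction of every called gene that is named held in all alternatives run, and 118 of the 149 called genes kept the call in each of them. Of 2650 gene values under alternatives, 2533 stayed on their side of the threshold (10 of these, never called, turned direction), 13 gained a call and 104 lost it, most of these with genotype left out of the model (18), with no filter (15), with all 12 libraries in the fit (15) or without the C24xCol pair (15). The number of called loci was 8857 with median-of-ratios scaling, 8836 with quantile normalization and 8223 after rescaling to nuclear loci, and the share of calls higher at dusk ran from 43.5% to 53.3%. Pseudocounts of 0.1, 0.5 and 5 gave 8400, 8428 and 8302 calls, no filter 7666, a minimum mean of 5 RPKM 6605, the highest gene model alone 8107, 12 libraries 7363 and no variance trend 8406. Without the genotype block that pairs the libraries, 6611 loci were called. With a pair left out, the genotype tests kept only 1 residual degree of freedom. Without the C24 pair they were the same comparison. Their counts in such fits are therefore not read as differences between genotypes. Leaving out 1 genotype's pair gave 5551 to 8646 called loci, 2524 to 4612 of them higher and 3027 to 4034 lower at dusk, and 0 to 21 loci for hybrids against parents and 0 to 29 by C24 alleles.

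Only genes that were not called turned direction. With a pair left out, the change ran from -0.039 to 1.83 for DFR, -0.65 to 0.11 for GPX7, -0.52 to 0.47 for PR1, -0.31 to 0.51 for TT7, -0.011 to 1.55 for UF3GT and -0.038 to 0.0094 for FLC. PR1 was 0.038 at a pseudocount of 5, TT7 -0.020 at 0.1, and FLC 0.012 with median-of-ratios scaling and 0.0033 at a pseudocount of 5. Changes of genes under about 5 RPKM grew at a pseudocount of 0.1 and shrank at 5, as for PRR7 (3.26 and 0.49) and PRR5 (3.47 and 0.76). The cause of a lost call was not tested. Depth limits genes near 1 read, and 1 library per genotype and time limits the genotype tests.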

Other observations

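Over the tested salicylic acid genes they were 0.91 (ColxC24) and 0.46 (C24xCol) for the hybrids and 0.62 (Col) and 0.0092 (C24) for the parents. Over jasmonate genes they were 2.51 and 1.92 for the hybrids and 2.59 and 1.18 for the parents, with genotypes in the same order. Cold-response genes gave 0.87 and 1.53 for the hybrids and 1.32 and 0.0036 for the parents. For sugar-starvation genes the values were -1.59 and -1.92 for the hybrids and -2.55 and -1.22 for the parents. These 4 lists were picked after their values were seen, as lists where C24 had the smallest median change. Over all 20 lists C24 had the smallest median change in size in 9 and the largest in 4, while Col had the largest in 12 and the smallest in 2. The lists where C24 moved farthest were photoperiod (-1.25), light-harvesting antenna (-0.76), abscisic acid and drought (-0.42) and oxidative stress genes (0.39). The design holds no replicate of a genotype, and these differences were not tested.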
